A study of Mus musculus with 6 samples.

Results

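The genes described here are 10 genes of purine breakdown, purine salvage and adenosine signalling: Xdh, Pnp, Gda, Ada, Hprt, Aprt, Entpd1, Nt5e, Adora2a and Adora2b. They were taken by symbol from the deposited table of 54532 genes, each symbol matched 1 row, and all 10 passed the filter on low counts. The table holds read counts from RNA sequencing of 6 mouse macrophage libraries, 3 with the genotype label Tet2 knockout and 3 with the label wild-type. Both groups had been treated with MSU, monosodium urate, the crystal form of uric acid that deposits in gouty joints, and the series' text calls the cells bone-marrow-derived. No untreated library was analysed here, so the values compare genotype labels within crystal-treated cells. The labels give neither the deleted allele, nor the dose or duration of MSU, nor the age of the mice, nor whether libraries of a group came from separate animals, and p-values therefore speak only of how these libraries vary, and that variation may be technical.

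Purine nucleotides are broken down to nucleosides, then to the bases hypoxanthine and guanine, then to xanthine and finally to urate, the substance of the MSU crystal. Salvage enzymes return the bases to the nucleotide pool before they reach urate. Outside the cell a parallel route strips ATP to AMP and then to adenosine, which acts through cell-surface receptors and is known to restrain inflammatory activity in macrophages.

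Totals ran from 11997104 to 14481843 counts per library, so that 1 count was worth 0.0702 to 0.0825 CPM, the depth-scaled read count used below, for which libraries were scaled to one another by the TMM method. Mitochondrially encoded genes took 0.349% to 0.366% of counts under the knockout label and 0.240% to 0.275% in wild-type, and the part of this difference in the results was not tested. Wild-type replicate 2 had the smallest total and was distant from its group on the second principal component (18.8 against -10.4 and -9.21). Tet2 itself was higher, not lower, in the libraries labelled knockout: its mean level was 33.7 ± 0.80 CPM in them and 29.3 ± 1.41 CPM in wild-type (SD, n = 3 each; edgeR adjusted p = 0.0159), without overlap. That call was lost when knockout replicate 2 (0.0553) or wild-type replicate 2 (0.0799) was left out. A count over the whole gene cannot show a partial deletion, so directions below are those of the libraries labelled knockout. The macrophage markers Adgre1, Csf1r and Cd68 were abundant in every library, and the summed level of 8 macrophage markers was 6665 to 6939 CPM under the knockout label and 6492 to 6906 CPM in wild-type. Within that sum 4 of the 8 markers rose and 3 fell, among them Adgre1 and Csf1r with log2 changes of 0.78 and 0.55 and Lyz2 with -0.47. By the test described below 87.5% of the 8 were called, against 40.9% of all genes tested. Markers of fibroblasts were abundant too, led by Col1a1, and their summed level over 10 genes was 7085 to 7265 CPM under the knockout label and 7587 to 8100 CPM in wild-type.

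Of the 10 genes, 4 were higher in the libraries labelled knockout (Hprt, Pnp, Entpd1 and Adora2a), 3 were lower (Aprt, Nt5e and Adora2b) and 3 did not pass the test (Xdh, Ada and Gda). A gene is said to pass where edgeR's quasi-likelihood test, adjusted over all 13175 genes tested, gave p at or under 0.05. By that rule 40.9% of all genes tested passed, 21.6% higher and 19.2% lower. The median size of the 10 changes, without sign, was 0.22 on the log2 scale, against 0.17 over all genes tested. The salvage enzymes, the surface enzymes and the adenosine receptors each held 1 gene that rose and 1 that fell, and of the 4 breakdown enzymes Pnp alone passed.

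**Figure D1:**
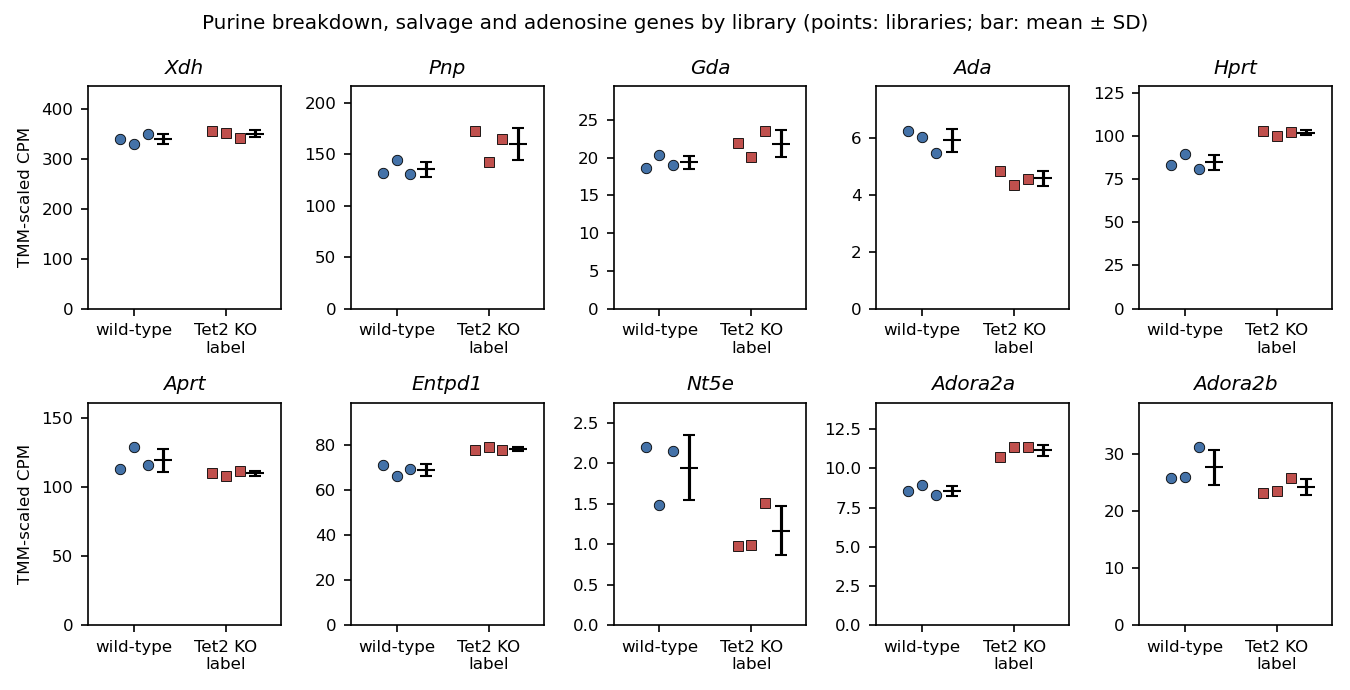
TMM-scaled CPM (vertical axes, from 0, with a scale of its own in each panel) of the 10 genes in each of 3 wild-type libraries (blue circles) and 3 libraries labelled Tet2 knockout (red squares), with mean ± SD beside them. Hprt, Entpd1 and Adora2a lie higher in all 3 libraries labelled knockout than in any wild-type library, Ada, Aprt and Adora2b lie lower, and Xdh, Pnp, Gda and Nt5e overlap between the groups.

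Stretches of DNA just before start sites of Hprt, Entpd1 and Adora2b are shown. These genes stand for salvage, extracellular ATP breakdown and adenosine reception, passed the test, and each have a window free of annotated exons. RefSeq (build GRCm38.p6) gave start sites for 8 of the 10 genes, and Xdh and Adora2a had no entry. Each line gives the 250 bases before the start site, 5′ to 3′ on the gene's strand, with matches to 3 short motifs in capitals. For Hprt the RefSeq start lies upstream of position 52988137, where the gene model counted here starts, so its window does not abut that model. Hprt lies on the plus strand at chrX:52987828-52988077, the second of the Entpd1 start sites on the plus strand at chr19:40659520-40659769, and Adora2b on the plus strand at chr11:62248734-62248983.
Hprt: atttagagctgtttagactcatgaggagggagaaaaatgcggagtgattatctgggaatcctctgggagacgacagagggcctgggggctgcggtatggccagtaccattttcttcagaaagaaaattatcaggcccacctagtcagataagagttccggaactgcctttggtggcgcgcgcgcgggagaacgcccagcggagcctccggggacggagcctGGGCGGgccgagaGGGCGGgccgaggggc
Entpd1: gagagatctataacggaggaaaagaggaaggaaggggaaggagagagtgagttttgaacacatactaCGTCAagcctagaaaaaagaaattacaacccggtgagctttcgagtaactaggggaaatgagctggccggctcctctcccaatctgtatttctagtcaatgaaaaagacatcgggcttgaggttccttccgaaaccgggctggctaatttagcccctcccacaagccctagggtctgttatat
Adora2b: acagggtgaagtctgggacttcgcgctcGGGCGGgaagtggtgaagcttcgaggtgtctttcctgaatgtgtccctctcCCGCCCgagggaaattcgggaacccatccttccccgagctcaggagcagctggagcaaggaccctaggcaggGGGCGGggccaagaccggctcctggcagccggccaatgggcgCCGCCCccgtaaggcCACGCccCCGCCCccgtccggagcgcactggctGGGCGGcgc

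The motifs, searched on both strands, were ACGTG or GCGTG (the core bound by hypoxia-inducible factors), TGACG (the half-site of the cAMP response element) and GGGCGG (the GC box). The first and the second can share bases where they meet. The Adora2b window held 6 GC boxes and 1 match to the hypoxia core, 42 bases before the start site, and no TGACG. The Hprt window held 2 GC boxes and neither of the other motifs. The Entpd1 window shown, that of the second start site, held a TGACG match 183 bases before that site and neither of the others. The window of the first Entpd1 start site, not shown because it overlaps an exon of Tctn3, differed. It held the hypoxia core 18 bases and TGACG 135 bases before the first site, and no GC box. Which site these cells use was not tested. Of 32851 RefSeq windows of the same length, 38.6% held the hypoxia core, 17.8% TGACG and 32.7% the GC box. The Adora2b window held 22 CpG dinucleotides, the Hprt window 17, the Entpd1 window shown 8 and that of the first Entpd1 site 18. The median over all windows was 6, and 85.2%, 76.5%, 57.0% and 78.3% of all windows held fewer, in the same order. These are matches of letters, and binding and methylation were not measured.

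Xdh encodes xanthine dehydrogenase, which carries out the last steps to urate, and it lies on the minus strand of mm10 chromosome 17 (positions 73883895 to 73950196). It was read at 357, 353 and 342 CPM in knockout-labelled replicates 1, 2 and 3 and at 340.5, 330.1 and 349 CPM in wild-type replicates 1, 2 and 3. The groups overlapped, the lowest library labelled knockout lying below the highest wild-type library. The log2 change was 0.04 (SE 0.03; edgeR adjusted p = 0.219), with a 95% interval from -0.01 to 0.10. At 4001 or more counts in every library this was the most deeply read of the 10 genes, and the interval holds no change larger than 0.10 on the log2 scale. The gene did not pass under any alternative tried.

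Pnp, purine nucleoside phosphorylase, splits inosine and guanosine into their bases and feeds both urate production and salvage (chromosome 14, positions 50931082 to 50965237, plus strand). Its levels were 173, 143 and 165 CPM under the knockout label and 131, 144 and 130.4 CPM in wild-type. Replicate 2 of the knockout label lay just below wild-type replicate 2, and the other 2 libraries labelled knockout lay above all wild-type libraries. Pnp rose by a log2 change of 0.25 (SE 0.07; edgeR adjusted p = 0.0242). Pnp no longer passed when knockout replicate 3 was left out (edgeR adjusted p = 0.0631), nor without wild-type replicate 1 (0.0971) or 3 (0.0873), and the adjusted p ranged from 1.78e-11 to 0.176 over all alternatives. The value is uncertain because the neighbouring paralog Pnp2 lies within the span of Pnp, and because 21.9% of the exonic bases of Pnp are shared with other annotated genes. Pnp2 stood at 3.83 ± 0.63 and 3.74 ± 0.84 CPM (SD, n = 3 each; edgeR adjusted p = 0.892). It held 2.07% to 3.20% of the counts of the pair, and with both counted as 1 gene the log2 change was 0.24 (edgeR adjusted p = 0.0482).

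Gda, guanine deaminase, turns guanine into xanthine (chromosome 19, positions 21391307 to 21473445, minus strand). It was read at 21.9, 20.03 and 23.6 CPM under the knockout label and at 18.7, 20.4 and 19.1 CPM in wild-type. Wild-type replicate 2 lay above knockout-labelled replicate 2, so the groups overlapped. The log2 change was 0.17 (95% interval 0.0042 to 0.34; edgeR adjusted p = 0.0964). Without knockout replicate 2 it passed (edgeR adjusted p = 0.0450, log2 change 0.23), and the adjusted p ranged up to 0.462 over all alternatives.

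Ada, adenosine deaminase, turns adenosine into inosine and so removes the ligand of the adenosine receptors (chromosome 2, positions 163726584 to 163750239, minus strand). It was a low gene, at 4.84, 4.33 and 4.54 CPM under the knockout label and 6.25, 6.02 and 5.47 CPM in wild-type. All 3 libraries labelled knockout lay below all 3 wild-type libraries. The log2 change was -0.37 (SE 0.16; 95% interval -0.69 to -0.04), yet the edgeR adjusted p was 0.0619 at counts of 60 to 88 per library. With upper-quartile scaling it passed (edgeR adjusted p = 0.0473), and the adjusted p ranged from 0.0473 to 0.178 over all alternatives. Lymphocytes are a rich source of Ada in general. The T cell markers Cd3d and Cd3g had no count in any library, and Cd3e and Cd8a averaged 0.023 and 0.047 CPM under the knockout label and 0 CPM in wild-type. The summed level of the 8 T cell markers was 13.5 to 14.4 CPM under the knockout label and 5.26 to 5.32 CPM in wild-type. Most of it was Cd4, which rose from 3.48 ± 0.35 to 11.8 ± 0.69 CPM (SD, n = 3 each; edgeR adjusted p = 1.83e-19). Lck averaged 0.85 CPM under the knockout label and 1.03 CPM in wild-type, Cd5 0.99 and 0.55 CPM, and the part of these genes in the values of Ada was not tested.

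Hprt, hypoxanthine-guanine phosphoribosyltransferase, returns hypoxanthine and guanine to the nucleotide pool (chromosome X, positions 52988137 to 53021659, plus strand). Its loss in people causes overproduction of urate and gout. Levels were 103, 100.1 and 102 CPM under the knockout label and 83.2, 89.8 and 81.0 CPM in wild-type. The groups did not overlap, as for 47.8% of all genes tested. Hprt rose 1.21-fold, a log2 change of 0.27 (SE 0.04; edgeR adjusted p = 1.01e-07), the smallest p of the 10 genes. Only the alternative with an assumed coefficient of variation of 0.1 between libraries lost this call (edgeR adjusted p = 0.135), of 16 alternatives.

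Aprt, adenine phosphoribosyltransferase, salvages adenine (chromosome 8, positions 122574635 to 122576909, minus strand). Levels were 109.9, 108 and 112 CPM under the knockout label and 113, 129 and 116 CPM in wild-type. The groups did not overlap, but the highest library labelled knockout (111.7 CPM) came close to the lowest wild-type library (113.4 CPM), and wild-type replicate 2 was the highest of all. Aprt fell by 0.12 on the log2 scale (SE 0.04; edgeR adjusted p = 0.0154). Without wild-type replicate 2 the log2 change was -0.07 (edgeR adjusted p = 0.195), and the call was also lost without knockout replicate 1 (0.0511) or 2 (0.0679) and with DESeq2 (adjusted p = 0.0612). The adjusted p ranged from 0.00382 to 0.596 over all alternatives.

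Entpd1 encodes CD39, the surface enzyme that strips ATP and ADP to AMP (chromosome 19, positions 40612366 to 40741602, plus strand). It was read at 78.1, 79.3 and 77.7 CPM under the knockout label and at 71.5, 66.3 and 69.4 CPM in wild-type. The groups did not overlap, and the 3 libraries labelled knockout lay close together. Entpd1 rose 1.13-fold, a log2 change of 0.18 (SE 0.05; edgeR adjusted p = 0.000967). Of 16 alternatives, the assumed coefficient of variation of 0.1 was the only one to lose the call (edgeR adjusted p = 0.370).

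Nt5e encodes CD73, which completes the route by turning AMP into adenosine (chromosome 9, positions 88327197 to 88372092, plus strand). It was close to the limit of what these libraries can measure, with 14, 14 and 20 counts under the knockout label and 31, 18 and 30 counts in wild-type. In scaled units these were 0.98, 0.99 and 1.51 CPM against 2.20, 1.49 and 2.16 CPM, and knockout-labelled replicate 3 lay above wild-type replicate 2. Nt5e fell by 0.76 on the log2 scale (SE 0.31; edgeR adjusted p = 0.0390), the largest change among the 10 genes with the widest interval, from -1.37 to -0.15. Leaving out knockout replicate 1 (edgeR adjusted p = 0.143) or 2 (0.140), or wild-type replicate 1 (0.143) or 3 (0.128), ended the call, as did DESeq2 (adjusted p = 0.127) and no filter on low counts (edgeR adjusted p = 0.0697). The adjusted p ranged from 0.01997 to 0.143 over all alternatives.

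CD73 is widely present on fibroblasts, and several fibroblast markers also differed between the groups. Of 10 such markers 6 fell (Col1a1, Col1a2, Dcn, Lum, Acta2 and Postn) and 1 rose (Col3a1), which left Thy1 and both Pdgf receptor genes uncalled. Thus 70% were called, against 40.9% of all genes tested, of which 19.2% fell and 21.6% rose. The median size of the 10 changes, without sign, was 0.14 on the log2 scale, against 0.17 over all genes tested. Lum fell by 1.15 on the log2 scale, on only 24, 14 and 10 counts under the knockout label and 37, 41 and 25 in wild-type. Acta2 fell by 0.53, Postn by 0.40, Dcn by 0.25, Col1a1 by 0.11 and Col1a2 by 0.09, while Col3a1 rose by 0.11. Within the groups the order of the libraries depended on the marker. Wild-type replicate 2, the lowest of its group in Nt5e, was highest in Col1a1 (3640 CPM) and lowest in Pdgfrb (72.3 CPM). Knockout-labelled replicate 3, the highest of its group in Nt5e, was also highest in Col1a1 (3242 CPM) and lowest in Pdgfrb (68.0 CPM). The part of the fibroblast markers in the result for Nt5e was not tested. In bulk RNA fewer cells of a type cannot be told apart from less RNA per cell. The ratio of Entpd1 to Nt5e, each per kilobase of gene model, was 79.2 to 123 under the knockout label and 49.6 to 68.9 in wild-type. Its spread comes mostly from the few counts of Nt5e.

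Adora2a encodes the A2A adenosine receptor, which has high affinity for adenosine and raises cAMP (chromosome 10, positions 75316877 to 75334784, plus strand). Levels were 10.7, 11.4 and 11.4 CPM under the knockout label and 8.53, 8.91 and 8.27 CPM in wild-type. Every library labelled knockout lay above every wild-type library. Adora2a rose 1.30-fold, a log2 change of 0.38 (SE 0.12; edgeR adjusted p = 0.00647), the largest rise of the 10 genes. It lost the call with the assumed coefficient of variation of 0.1 (edgeR adjusted p = 0.0861) and with none of the other 15 alternatives.

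Adora2b encodes the A2B receptor, which also raises cAMP but needs more adenosine (chromosome 11, positions 62248984 to 62266453, plus strand). Levels were 23.2, 23.5 and 25.7 CPM under the knockout label and 25.8, 25.9 and 31.1 CPM in wild-type. The groups did not overlap, yet knockout-labelled replicate 3 all but reached wild-type replicate 1, and wild-type replicate 3 stood well above the rest. Adora2b fell by 0.20 on the log2 scale (SE 0.08; edgeR adjusted p = 0.0329). Without wild-type replicate 3 the log2 change was -0.10 (edgeR adjusted p = 0.384), and the call was also lost without knockout replicate 1 (0.136) or 2 (0.0978) and with DESeq2 (adjusted p = 0.116). The adjusted p ranged from 0.0104 to 0.384 over all alternatives. A2B is also made by fibroblasts, of whose 10 markers 6 fell and 1 rose as given above. Over all genes tested 19.2% fell and 21.6% rose, and the part of the fibroblast markers here was not tested.

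Per kilobase of gene model the A2B receptor mRNA exceeded the A2A receptor mRNA in every library. The ratio was 3.58, 3.43 and 3.75 under the knockout label and 5.02, 4.83 and 6.25 in wild-type, so the groups did not overlap and the A2B excess was smaller under the knockout label. The remaining adenosine receptors were near or at 0. Adora1 had no count in any library, which allows a level of at most 0.211 to 0.248 CPM at 3 counts, a limit from counting error only. Adora3 had 3 to 10 counts per library and was below the filter.

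**Figure D2:**
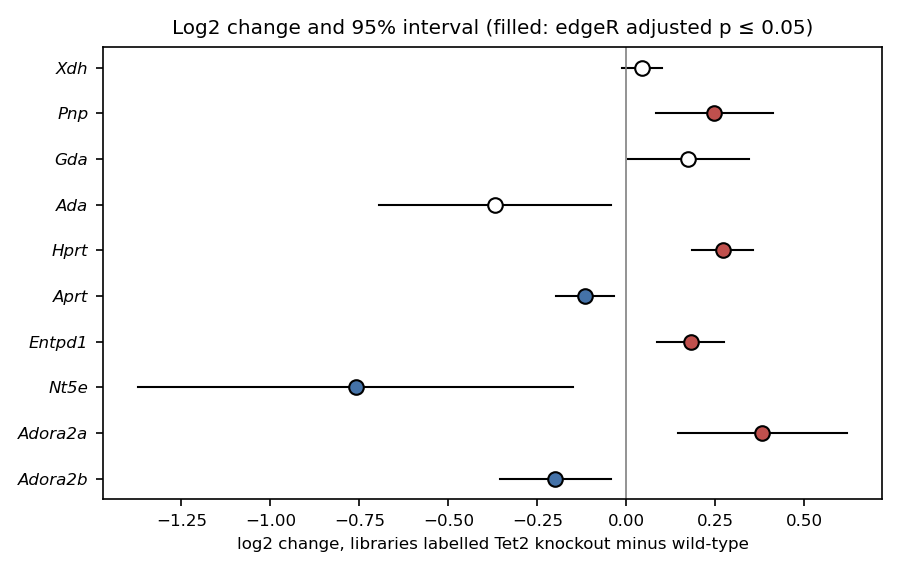
Log2 change (horizontal axis, libraries labelled Tet2 knockout minus wild-type) of the 10 genes with 95% intervals from the edgeR fit, filled where the adjusted p was at or under 0.05 (red higher, blue lower). Xdh has the narrowest interval, from -0.01 to 0.10, and Nt5e the widest, from -1.37 to -0.15.

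Levels per kilobase of gene model put the genes in an order that runs from the salvage enzymes down to Nt5e. Over the 6 libraries the mean was 72.4 CPM per kilobase for Hprt, 71.0 for Aprt, 37.6 for Xdh and 37.1 for Pnp. Adora2b followed at 14.02 and Entpd1 at 13.2 CPM per kilobase, then Gda at 3.36, Adora2a at 3.22, Ada at 2.62 and Nt5e at 0.18. Xdh and Pnp overlapped in both groups, so their order is not resolved. Aprt lay above Hprt in all 3 wild-type libraries (70.2 to 79.9 against 62.8 to 69.6 CPM per kilobase) and below it in all 3 libraries labelled knockout (67.0 to 69.2 against 77.6 to 80.03). Adora2b and Entpd1 changed order too, but less clearly. Adora2b was the higher in wild-type (13.98 to 16.9 against 11.9 to 12.8). Entpd1 was the higher under the knockout label, though in replicate 3 the genes were all but equal (13.93 against 13.91). Gda and Adora2a overlapped only under the knockout label, and Adora2a and Ada only in wild-type. Such orders depend on the gene model lengths in the table, which count every annotated exon whether or not these cells use it.

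**Figure D3:**
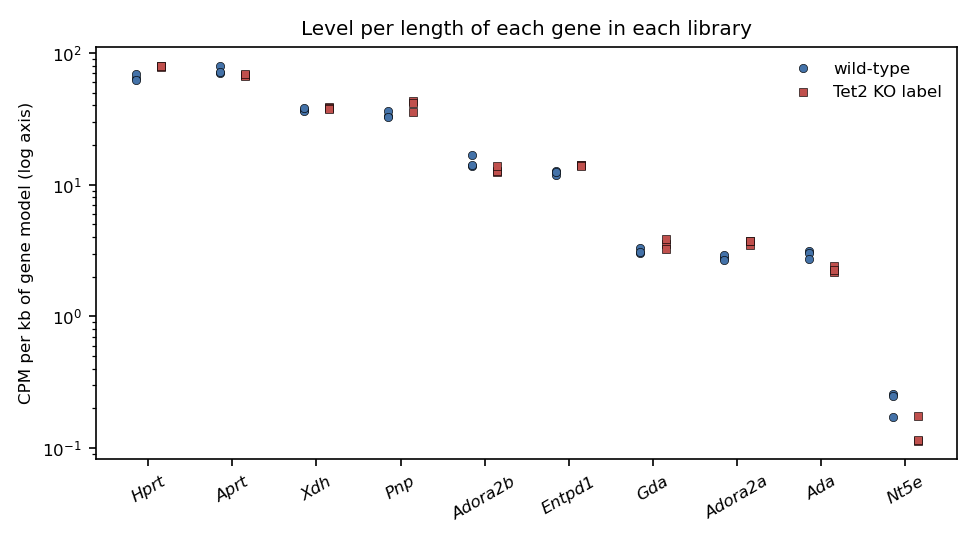
Level of each gene in CPM per kilobase of gene model (vertical log axis) in 3 wild-type libraries (blue circles) and 3 libraries labelled Tet2 knockout (red squares), ordered by the mean over all 6. Hprt and Aprt lead at about equal means (72.4 and 71.0), and Nt5e lies lowest (0.18).

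The rest of the purine pathway was read from 6 lists of 83 genes, of which 64 passed the filter, and 17 of these rose and 18 fell (54.7% called, against 40.9% of all genes tested). The median log2 change over the 64 was -0.02. Of the genes of de novo purine synthesis, which builds purines from small precursors, 7 of 13 tested fell and 2 rose (69.2% called). Over all genes tested 19.2% fell and 21.6% rose. The median log2 change of the 13 was -0.11. Impdh1 and Impdh2, the IMP dehydrogenases that commit IMP to guanine nucleotides, fell by 0.32 and 0.15 on the log2 scale, and Gmps, the next enzyme of that branch, by 0.15. Atic, which completes the ring to IMP, fell from 104 ± 2.02 to 91.3 ± 1.52 CPM (SD, n = 3 each). Adsl fell by 0.15 and Adssl1 by 0.11, both named after their values were seen. Adsl lost its call without knockout replicate 1 (edgeR adjusted p = 0.0877) or 3 (0.237) or wild-type replicate 1 (0.0671) or 2 (0.0720). In all it lost the call under 6 of 16 alternatives, among them DESeq2 (adjusted p = 0.096). Adssl1 lost its call without knockout replicate 1 (edgeR adjusted p = 0.124) or 3 (0.202) or wild-type replicate 1 (0.0626) or 3 (0.128). Its losses came to 10 of 16 alternatives, among them DESeq2 (adjusted p = 0.119). The 2 genes of this list that rose, named after their values were seen, were Prps2 (0.21) and Adss (0.12). Gmps lost its call without wild-type replicate 3 (edgeR adjusted p = 0.0509). Prps2 lost it without knockout replicate 3 (0.169) or wild-type replicate 1 (0.0812), and under 4 of 16 alternatives in all. Adss lost its call without knockout replicate 2 (edgeR adjusted p = 0.165) or 3 (0.0536) or wild-type replicate 1 (0.193). Its losses came to 6 of 16 alternatives, among them DESeq2 (adjusted p = 0.0933).

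Enzymes listed for purine interconversion and intracellular breakdown, not all of them specific to purines, went both ways, with 6 of 19 tested genes higher and 4 lower. Of the 19, 52.6% were called, against 40.9% of all genes tested. Lacc1, a purine nucleoside enzyme of macrophages, rose from 98.3 ± 3.46 to 149.6 ± 1.68 CPM (log2 change 0.61), and Samhd1, which breaks down deoxynucleotides, from 540.2 ± 5.68 to 688 ± 11.4 CPM (0.35). Nt5c3, a cytosolic nucleotidase that acts mainly on pyrimidine nucleotides, rose by 0.35 on the log2 scale. The other 3 that rose, named after their values were seen, were Gmpr (0.88), a GMP reductase gene with the largest change of this list, and the kinase genes Dck (0.25) and Adk (0.20). Adk lost its call without knockout replicate 2 (edgeR adjusted p = 0.0643) or 3 (0.255) and without wild-type replicate 2 (0.166) or 3 (0.137). In all it lost the call under 11 of 16 alternatives, among them DESeq2 (adjusted p = 0.1525). Ampd3, the AMP deaminase that turns AMP into IMP, fell from 98.4 ± 4.39 to 78.7 ± 0.64 CPM (-0.32). The other 3 that fell, named after their values were seen, were Nt5c (-0.30), Mtap (-0.21) and Nt5c2 (-0.18). Nt5c2 lost its call without knockout replicate 2 (edgeR adjusted p = 0.127) or 3 (0.109) and without wild-type replicate 1 (0.197) or 2 (0.0727). Its losses came to 6 of 16 alternatives, among them DESeq2 (adjusted p = 0.104). Uox, the urate oxidase that degrades urate in mice, had 2 counts in wild-type replicate 3 and none in the other 5 libraries.

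A further list held other Entpd and Enpp family members, taken whatever their place in the cell, and more enzymes of nucleotide and adenosine handling. Of its 10 tested genes 3 were called, each higher (30%, against 40.9% of all genes tested). Cd38, which consumes NAD at the cell surface, rose from 3.16 ± 0.25 to 8.31 ± 0.78 CPM, a log2 change of 1.39 (SE 0.17; edgeR adjusted p = 4.25e-12) and the largest change in the 6 lists. The other 2 were Enpp4 (0.30) and Entpd7 (0.16), of which Enpp4 lost its call without wild-type replicate 3 (edgeR adjusted p = 0.0779). Entpd7 lost it without any one of the libraries labelled knockout (0.0525, 0.0676 and 0.0703) and without wild-type replicate 1 (0.135) or 3 (0.118). In all Entpd7 lost its call under 9 of 16 alternatives, among them DESeq2 (adjusted p = 0.107). Entpd4 is listed at 0 in every library and so is its near-identical copy Entpd4b, so their values are uncertain.

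Carriers of nucleosides, nucleobases and urate split, 2 of 7 tested genes being higher and 2 lower (57.1% called, against 40.9% of all genes tested). Slc28a2, a sodium-coupled carrier of purine nucleosides that takes up adenosine, rose by 0.62 on the log2 scale, from 70.8 ± 2.66 to 108.6 ± 1.29 CPM (SD, n = 3 each; edgeR adjusted p = 5.86e-24). Slc2a9, the urate carrier GLUT9, rose by 0.67, from 6.80 ± 0.86 to 10.8 ± 0.44 CPM (edgeR adjusted p = 6.84e-06). Slc29a3, a nucleoside carrier of lysosomes, fell by 0.19 on the log2 scale and Slc43a3, a purine nucleobase carrier, by 0.30. Slc29a1, the main equilibrative carrier ENT1, stood at 57.6 ± 1.20 and 55.1 ± 2.45 CPM (edgeR adjusted p = 0.356).

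Downstream of the A2 receptors, genes of cAMP signalling also split, 4 of 15 tested genes being higher and 5 lower. Of the 15, 60% were called, against 40.9% of all genes tested. The adenylyl cyclase genes Adcy7, Adcy9 and Adcy3 rose by 0.68, 0.48 and 0.34 on the log2 scale, Adcy7 from 181 ± 3.14 to 290.5 ± 4.72 CPM, and the kinase subunit gene Prkar2b rose by 0.38. Those that fell were Nr4a1 (-1.07) and Crem (-0.46), transcription factors induced by cAMP among other signals, Pde4b (-0.47), which degrades cAMP, Rapgef3 (-0.40), a cAMP-activated exchange factor, and Prkar1a (-0.07). Adcy3, Prkar2b, Crem, Rapgef3 and Prkar1a were named after their values were seen. Rapgef3 lost its call without wild-type replicate 3 (edgeR adjusted p = 0.0972), and Prkar1a without knockout replicate 1 (0.197) or 2 (0.140) or wild-type replicate 2 (0.104) or 3 (0.0624). In all Prkar1a lost its call under 7 of 16 alternatives.

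**Figure D4:**
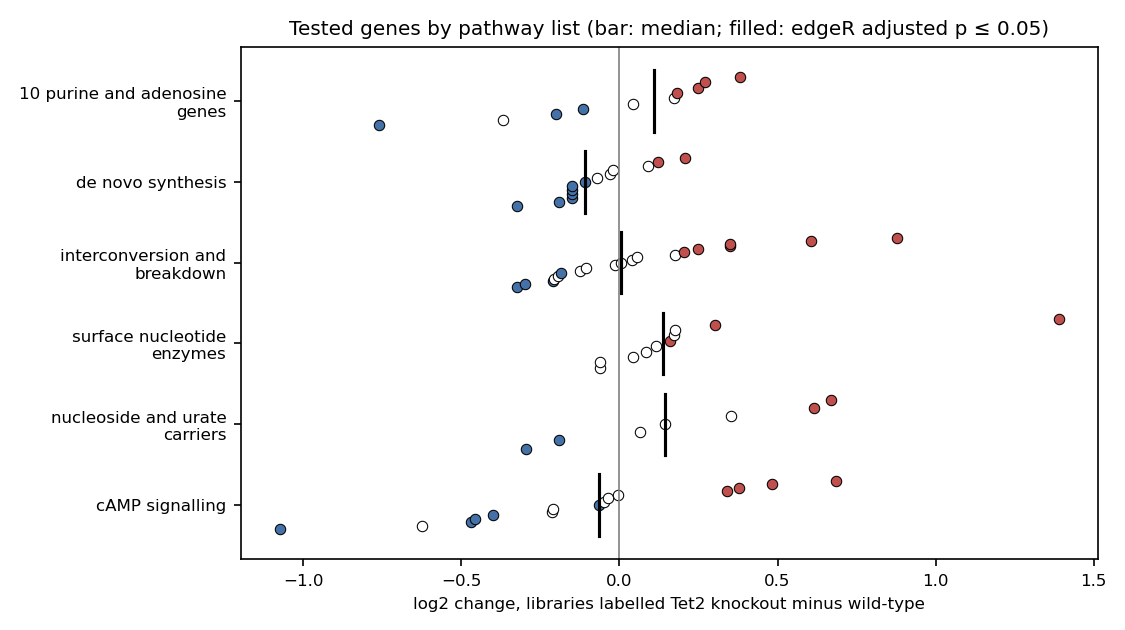
Log2 change (horizontal axis, libraries labelled Tet2 knockout minus wild-type) of every tested gene of the 10 purine and adenosine genes and of 5 pathway lists, 1 point a gene, filled where the edgeR adjusted p was at or under 0.05 and with a bar at the median. De novo synthesis has its median at -0.11 with 7 of 13 genes lower, and Cd38 lies farthest right at 1.39.

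The directions of the 10 genes were steadier than their calls. All 10 kept their sign under each of 16 alternatives. Since the alternatives reuse the same libraries, kept signs cannot show whether the directions would recur in other libraries. The 4 rises were also called by DESeq2, whereas none of the 3 falls was (0 at DESeq2 adjusted p of 0.05, 2 at unadjusted p under 0.05). With the coefficient of variation between libraries set to 0.1 in place of the fitted 2.63%, edgeR called 0 of the 10 genes (3 higher and 2 lower at unadjusted p under 0.05), while 14.3% of all genes tested passed. The falls numbered 0 without knockout replicate 1 and 0 without knockout replicate 2 (edgeR, 2 at unadjusted p under 0.05 in each case), and 1 without wild-type replicate 3. Without wild-type replicate 2, the library that stood apart, there were 4 rises and 2 falls.

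**Figure D5:**
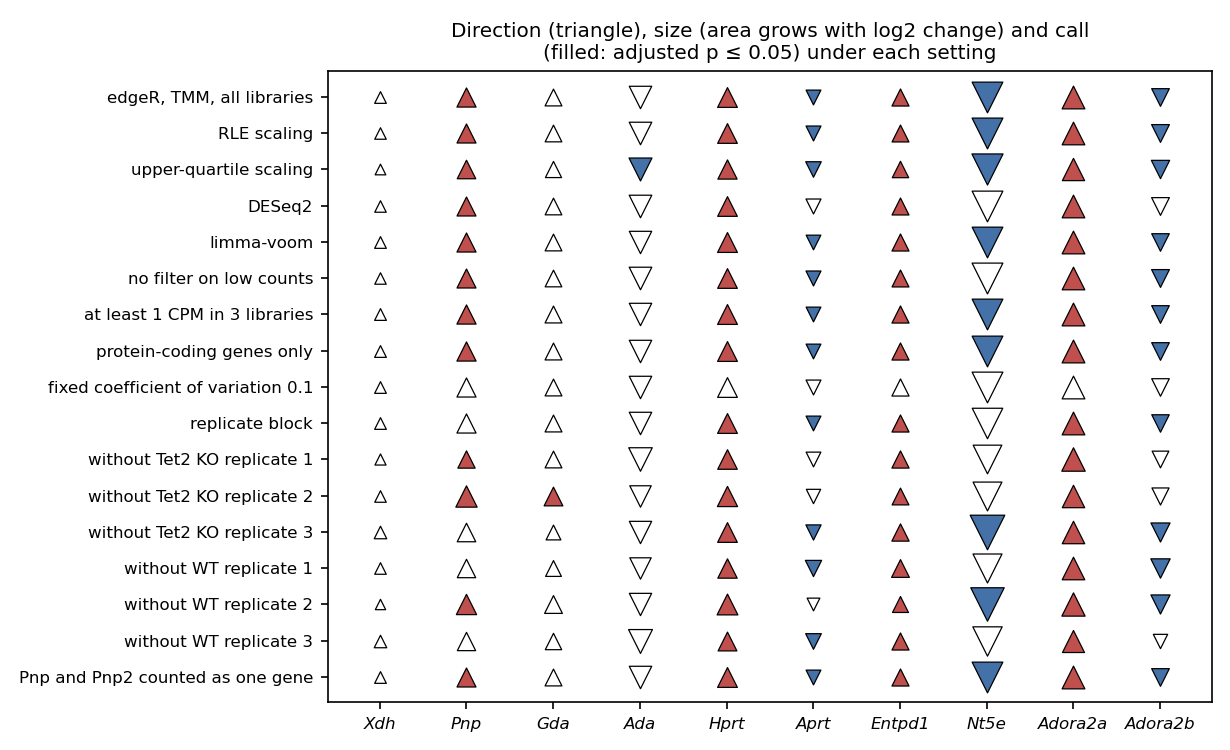
Direction (triangle up or down), size (area grows with the absolute log2 change) and call (filled where the adjusted p was at or under 0.05) of the 10 genes under the reported fit, in the top row, and under 16 alternatives. Directions are the same in every row, Hprt, Entpd1 and Adora2a are filled in every row but that of the assumed coefficient of variation of 0.1, and Nt5e, Aprt, Pnp and Adora2b are open in several.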

How the data were processed

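The 6 libraries were grouped by their genotype labels. Per the labels' protocols, RNA came off RNeasy Plus columns and was made into libraries with the NEBNext Ultra kit. The deposited values are raw read counts per gene, made with fastp, STAR and featureCounts on mm10, per the submitters' processing notes. Versions and the strand setting are not given in the sources used here. Deposited gene model lengths served for levels per kilobase. All count columns matched a sample and every row named a gene.

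The test was that of edgeR 4.0.16 under R 4.3.3 (filterByExpr with a minimum count of 10, TMM, robust quasi-likelihood test with genotype as the only term, Benjamini-Hochberg adjustment over all genes tested, threshold 0.05, prior count 0.125). The procedure was tested on simulated data. Single genes were tested in models fitted over all genes, this one and the alternatives, since 3 libraries against 3 allow an exact permutation test no p under 0.1. DESeq2 1.42.0 and limma-voom (limma 3.58.1) were alternatives, and counting Pnp and Pnp2 as 1 gene was added after seeing the data. Exon overlaps came from GENCODE M21, whose spans matched the table's for all 10 genes. Figures used matplotlib 3.10.9.

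The 10 genes and all lists were chosen with earlier results of these data known. Beyond the 10 genes and Tet2, the text names up to 4 called genes of each list by smallest p, or, where none was called, the 2 with the highest level. Other pathway genes and the single marker genes named were chosen after their values were seen, and marker lists are otherwise given by counts and summed levels.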

Additional observations from a re-analysis of the deposited data

How the results depend on the processing

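Alternatives were other scalings (RLE, upper quartile), limma-voom, DESeq2, all genes with a count, a floor of 1 CPM in 3 libraries, only protein-coding genes, an assumed coefficient of variation of 0.1, a block for the replicate number, leaving out each library, and Pnp and Pnp2 counted as 1 gene. No direction reversed among the 10 genes, Tet2 and the called genes of the pathway lists. With the assumed coefficient of variation of 0.1, edgeR called 0 of the 10 genes higher and 0 lower, and 10 pathway genes higher and 4 lower. DESeq2 called 0 of the 10 lower. With 1 library left out, 3 to 5 of the 10 were called higher and 0 to 3 lower, and 13 to 17 pathway genes higher and 15 to 16 lower. With a block for the replicate number, 3 of the 10 were called higher and 2 lower, and 16 pathway genes higher and 17 lower; of the 10, Pnp (edgeR adjusted p = 0.0573) and Nt5e (0.0531) were then uncalled. Same-numbered libraries did not deviate together (correlations of 0.00365, -0.00646 and -0.0206). Such values cannot show whether they share an origin or a batch, and the labels do not say. Under the remaining alternatives the counts were within 1.5 times those reported. The cause of these differences was not tested, except that leaving out a library reduces the samples. Depth limits Nt5e (14 to 31 counts) and Ada (60 to 88 counts) most.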
